A study of Mus musculus with 6 samples.

Results

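The genes described here are the mouse genes whose symbols start with *Kcn*, which encode the pore-forming and accessory subunits of potassium channels. They were taken as the probe sets (transcript clusters) of the array to which the platform annotation gives exactly 1 symbol, that symbol starting with *Kcn*. Where a gene had several such clusters, the cluster with the highest mean over the 6 arrays was kept. This rule gave 92 genes from 95 clusters, out of 19938 named genes on the array, and 3 of the genes (*Kcna2*, *Kcnh8* and *Kcnma1*) had more than 1 cluster. Of the 92 genes, 88 encode channel subunits. The other 4 carry the prefix for another reason: *Kcnd3os*, *Kcnmb4os1* and *Kcnmb4os2* are non-coding transcripts named after the channel gene that they lie opposite to, and *Kcnrg* encodes a soluble protein that interferes with the assembly of voltage-gated channels.

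Potassium channels let potassium ions flow down their gradient across the cell membrane. In a neuron this flow sets the resting potential, ends each action potential and determines how soon the next can follow. The families differ in what opens them: voltage-gated channels respond to depolarisation, calcium-activated channels to calcium inside the cell, inward rectifiers pass current best near rest, and tandem-pore channels, whose subunits each hold a pair of pore domains, carry the background leak. Auxiliary subunits make no pore of their own and change the traffic or gating of channels that do.

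RNA came from N2A cells, a mouse neuroblastoma line with sympathetic neuron features. Cells in medium with 10% serum were transiently transfected with 1.5 µg of a plasmid, either a non-targeting control vector (control, 3 arrays) or a construct expressing a short hairpin RNA against *Paupar*, a long non-coding RNA transcribed near *Pax6* (knockdown, 3 arrays). Total RNA was collected 2.5 days later and 200 ng per sample was labelled for Affymetrix mouse gene arrays. The methods call the samples biological replicates, and the comparison asks which transcripts change when *Paupar* is reduced. The labels name no hairpin, but the study shows its knockdown for a vector called sh408, in which a U6 promoter drives the hairpin. As the designed agent that the study names for its *Paupar* knockdown, the arms of the sh408 hairpin, 18 and 19 bases long as they stand in the ordered forward oligonucleotide, are shown 5′ to 3′ in lower case on either side of the loop, which is in capitals.
sh408, arm before the loop: aagagcagtcacaatata
sh408, loop: TTCAAGAGA
sh408, arm after the loop: catattgtgactgctcttc
The design limits the groups as models in that transfection was transient, RNA was taken from the whole culture with transfected and untransfected cells together, and 1 hairpin was set against 1 control vector. No transcript cluster is assigned to *Paupar* in the annotation, so the size of the knockdown was not analysed here.

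Values are log2 expression values after robust multi-array averaging (RMA), normalised by the authors so that the arrays share 1 distribution, and the array medians over the named genes lay between 7.85 and 7.92. A difference of 1 on this scale is a doubling of signal. Precision is limited by having 3 arrays a group. Of 13 measured markers of sympathetic neuroblastoma, 12 had control signals above the control median of 7.89 over all named genes (the exception was *Nefl*), against 1 of 6 markers of glia, 2 of 8 of fibroblasts and muscle and 1 of 6 of blood and endothelium.

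A single *Kcn* gene changed by the test when each gene was represented by its kept cluster. Genes were tested with limma after the 50% of named genes with the least variation had been removed, and a gene was called changed at a Benjamini-Hochberg adjusted p under 0.05 over all 9969 genes that remained. Of the 92 *Kcn* genes, 47 passed this filter on variation and entered the test, and 45 did not. *Kcnn3* fell, 0 rose and 46 were not called. Among all genes tested, 5.16% fell and 2.39% rose (7.54% in either direction). A difference of the *Kcn* counts, 1 and 0 of 47, from these shares was not tested. At an unadjusted p under 0.05 in the same limma fit, 5 of the 47 were lower (*Kcnn3*, *Kcnh2*, *Kcnip3*, *Kcnh7* and *Kcnk1*) and 4 were higher (*Kcnk5*, *Kcnc4*, *Kcng4* and *Kcnj4*), which is 10.6% and 8.51% of those tested against 15.3% and 11% of all genes tested. The median log2 fold change of the 92 was 0.03, the same to 2 decimals as that of all named genes, and 33 of them (35.9%) lay below 0, against 41.6% of all named genes. The 3 knockdown values lay entirely below the 3 control values in 7 *Kcn* genes (7.61%, against 10.8% of all named genes) and entirely above them in 12 (13%, against 12.8%).

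Most *Kcn* genes gave a weak signal on these arrays. In control cells 18 of the 92 (19.6%) lay above the array median of the named genes, against 50% of all named genes by construction. The gene just inside was *Kcnk4*, a background channel opened by membrane stretch, and the gene just outside was *Kcna3*, a delayed rectifier best known from T cells. Their control means, 7.90 and 7.89, were less than 0.02 apart. The array signal depends on the probes of each cluster as well as on the transcript, so this is a statement on detection and gives no ranking of transcripts. The 18 genes above the median were *Kcnab1*, *Kcnab2*, *Kcnab3*, *Kcnd3os*, *Kcng1*, *Kcng2*, *Kcnh2*, *Kcnh4*, *Kcnip3*, *Kcnk1*, *Kcnk3*, *Kcnk4*, *Kcnk15*, *Kcnma1*, *Kcnmb2*, *Kcnn2*, *Kcnn3* and *Kcnq5*.

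The genes with more signal leaned to the lower side and those with less signal did not. Of the 18 above the median, 13 had a log2 fold change below 0 (72.2%, against 50.7% of the named genes above it), their median was -0.09 (against 0.00), and in 5 of them (27.8%, against 17.8%) all knockdown values were below all control values. Of the 74 at or below the median, 20 were below 0 (27%, against 32.4% of the named genes there), the median was 0.04 (against 0.05), and the groups separated downwards in 2 and upwards in 10 (2.7% and 13.5%, against 3.71% and 9.24%). Of 11 tested *Kcn* genes above the median 1 fell and 0 rose, against 479 and 227 of the 5450 tested named genes there. At or below it 0 of 36 fell and 0 rose, against 35 and 11 of 4519. These shares are descriptions of the list, and no test of the list was made.

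**Figure D1:**
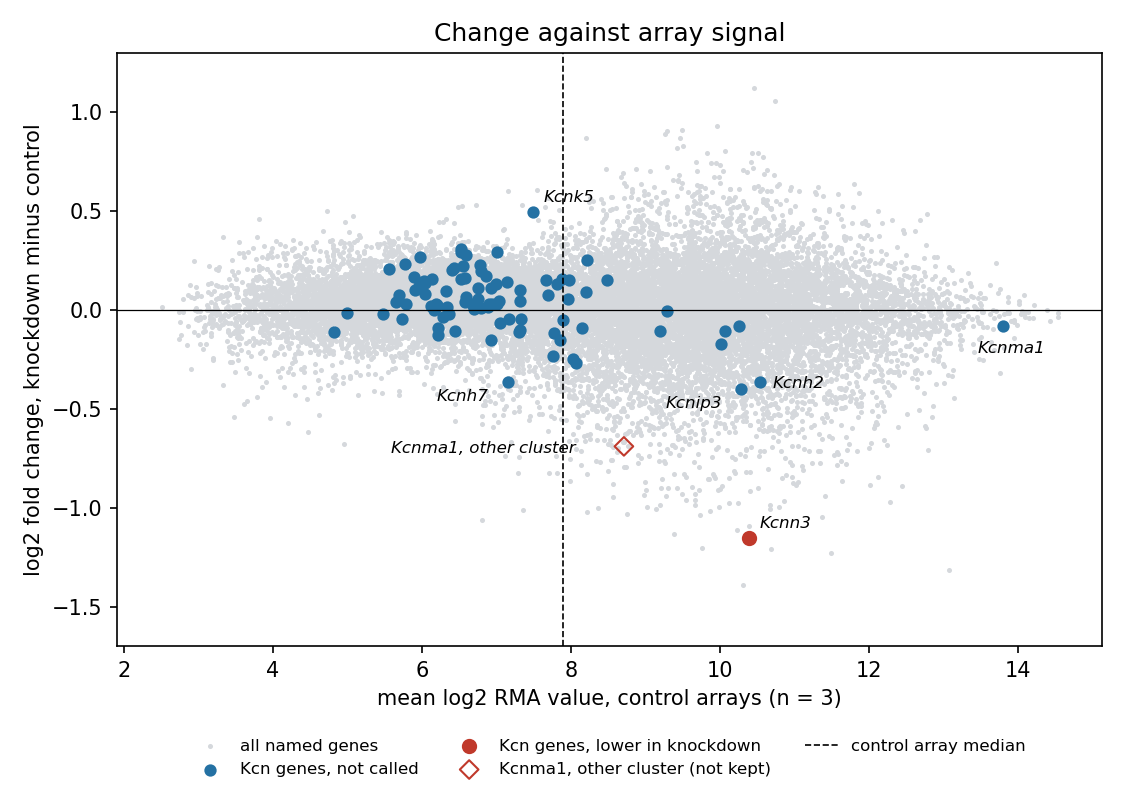
Log2 fold change (knockdown minus control, vertical axis) against the mean log2 RMA value on the 3 control arrays (horizontal axis), with all named genes in grey, *Kcn* genes in blue or, where called, red, and the control array median as a dashed line. Of the 92 *Kcn* genes 74 lie at or left of the dashed line, and the called gene, *Kcnn3*, at -1.15, lies well below the others on the right, with the *Kcnma1* cluster that was not kept (open diamond) at -0.69.

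Among the channels opened by calcium or sodium (8 genes, 6 of them tested), *Kcnn3* was lower by more than 2-fold. By their kept clusters the other members differed little, but *Kcnma1* was lower by its other cluster (-0.69), as given below. *Kcnn3* encodes a small-conductance calcium-activated channel, which is opened by calmodulin bound to the channel and carries the hyperpolarisation that follows an action potential, and it lies on chromosome 3. Its log2 values were 10.55, 10.31 and 10.33 on control arrays 1, 2 and 3 and 9.11, 8.95 and 9.67 on knockdown arrays 1, 2 and 3. The groups did not overlap, and the knockdown arrays were spread more widely than the controls, with knockdown array 3 closest to them. The means were 10.40 ± 0.13 and 9.25 ± 0.38 (SD, n = 3 each), a log2 fold change of -1.15 (SE 0.16, adjusted p = 0.0023 by limma), which is 2.22-fold lower, with a 95% interval of -1.53 to -0.78 from a fit to all named genes. In bulk RNA of this kind, fewer cells of a type and less RNA per cell cannot be told apart.

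The paralogues of *Kcnn3* gave no such difference, but their signals were weaker. Control means were 7.33 for *Kcnn1*, 7.96 for *Kcnn2* and 7.14 for *Kcnn4*, against 10.40 for *Kcnn3* and a control median of 7.89. RMA values compress differences near background, so these values do not show whether the fall was particular to *Kcnn3*. The log2 fold change was -0.04 for *Kcnn1* and 0.14 for *Kcnn4*, the intermediate-conductance channel of red and white blood cells (adjusted p = 0.847 and 0.468 by limma), and 0.06 for *Kcnn2*, which did not enter the test. Their 95% intervals, -0.28 to 0.19, -0.07 to 0.35 and -0.15 to 0.26, did not reach into that of *Kcnn3*. The sodium-activated channels *Kcnt1* and *Kcnt2* were at 0.11 and -0.11, and *Kcnu1*, the pH-sensitive channel of sperm, was at -0.11, all with overlapping groups.

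*Kcnma1*, which encodes the pore of the large-conductance channel opened jointly by calcium and voltage, gave different values in its 2 clusters. The cluster with the higher mean, kept by the rule, had log2 values of 13.84, 13.86 and 13.70 on the control arrays and 13.75, 13.68 and 13.74 on the knockdown arrays. These groups overlapped, the log2 fold change was -0.08, and the cluster did not pass the filter on variation. The other cluster had 8.86, 8.68 and 8.60 on the control arrays and 7.89, 8.01 and 8.18 on the knockdown arrays. Here the groups did not overlap, and every knockdown array was below every control array. Its means were 8.71 ± 0.14 and 8.02 ± 0.15 (SD, n = 3 each), a log2 fold change of -0.69, or 1.61-fold lower. The SE was 0.11, from a fit to every cluster with 1 symbol and without the filter. When this cluster stood for the gene in the limma fit, a choice made after its values had been seen, the adjusted p was 0.00685 and the count of lower *Kcn* genes became 2.

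The place of the kept *Kcnma1* cluster on the array differs from that of its gene. Cluster numbers on this array follow the genome, and the 10 named clusters nearest in number to the kept one all belong to genes of chromosome 8, while *Kcnma1* lies on chromosome 14. Among the 95 *Kcn* clusters it was alone in that the nearest clusters came mostly from another chromosome than that of the gene. It is also among 5 of the 95 to which the annotation assigns no RefSeq mRNA. The others are those of *Kcnk15* and of the non-coding *Kcnd3os*, *Kcnmb4os1* and *Kcnmb4os2*. For the other *Kcnma1* cluster the 10 nearest named clusters all belong to genes of chromosome 14, and 17 of its 20 accessions are RefSeq mRNAs. The kept cluster has 0 among 4 accessions. Which transcript the signal of the kept cluster measures was not tested. The clusters of the other 2 genes with several gave small values on either side of 0, with 0.10 and -0.05 for *Kcna2* and 0.20 and 0.00 for *Kcnh8* (the kept cluster given first).

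**Figure D2:**
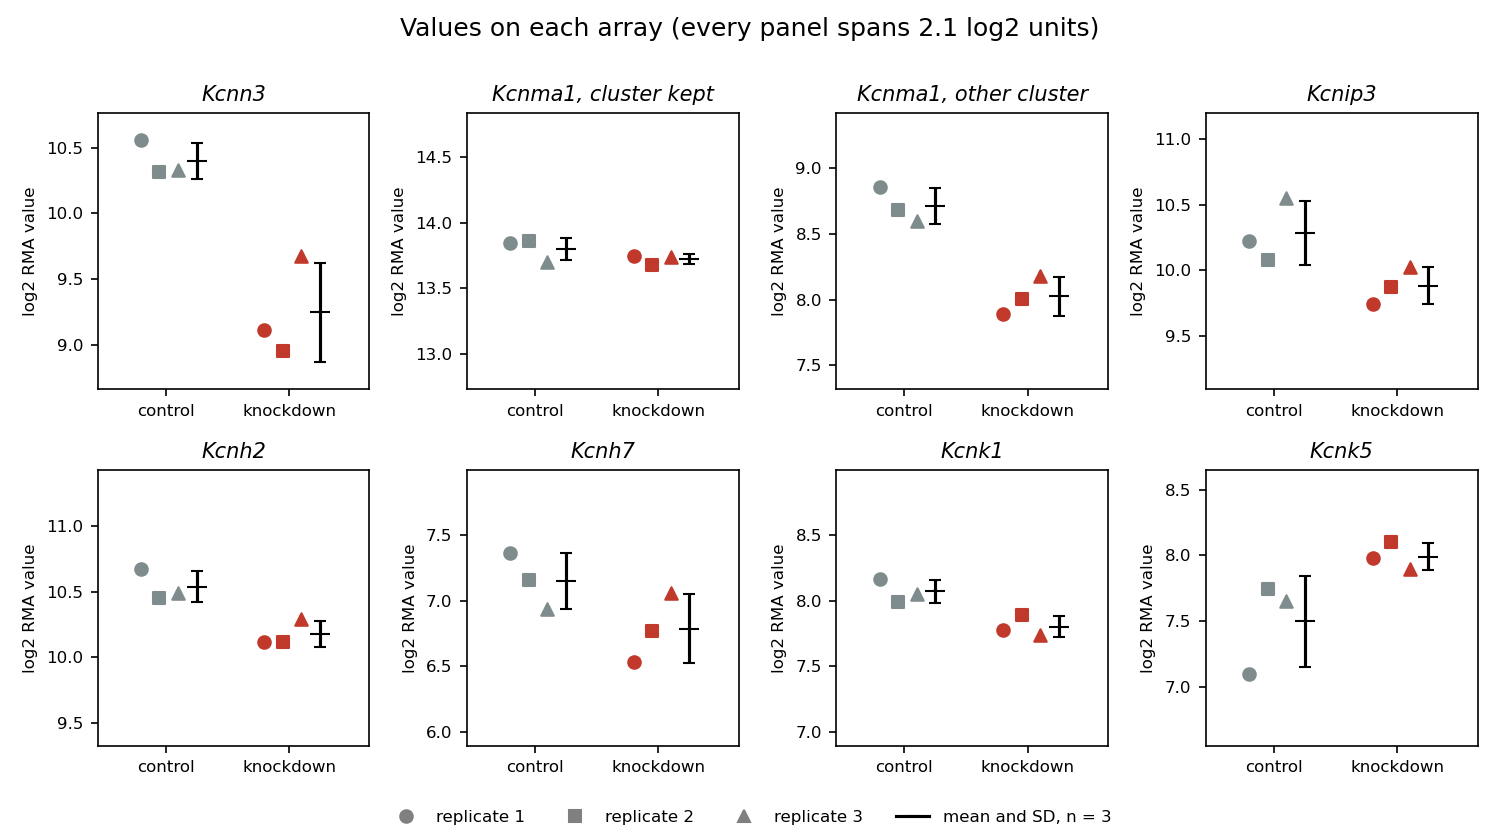
Log2 RMA values (vertical axis) on the 3 control arrays (grey) and the 3 knockdown arrays (red) for 7 *Kcn* genes, *Kcnma1* by each of its clusters, with the mean and SD beside each group. Symbols give the replicate number and every panel spans the same number of log2 units, so that distances compare between panels. The groups separate for *Kcnn3*, the other *Kcnma1* cluster, *Kcnip3*, *Kcnh2*, *Kcnk1* and *Kcnk5*, and overlap for the kept *Kcnma1* cluster and *Kcnh7*.

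The voltage-gated pore subunits (25 genes, 11 tested) were centred near 0, with a median log2 fold change of 0.02, and 10 of the 25 were below 0. None was called. Within them the *Kcnh* genes, the ether-à-go-go family, had a median of -0.11 and 5 of 7 below 0 (41.6% of all named genes were below 0). That median moved between -0.20 without control replicate 2 and -0.05 without knockdown replicate 2, and a difference from the other subfamilies was not tested. *Kcnh2* encodes the pore of the rapid delayed rectifier that repolarises heart muscle. It had log2 values of 10.68, 10.45 and 10.49 in control and 10.12, 10.12 and 10.29 in knockdown. All knockdown values were lower, and the log2 fold change was -0.36 (SE 0.12, adjusted p = 0.0807 by limma), which missed the threshold. Its close relative *Kcnh7* had 7.36, 7.15 and 6.94 against 6.53, 6.77 and 7.06. Knockdown array 3 lay above control array 3, so the groups overlapped, and the log2 fold change of -0.36 also missed the threshold (SE 0.15, adjusted p = 0.147 by limma). *Kcnh3* was at -0.23, *Kcnh4* at -0.11 and *Kcnh5* at -0.05, the last with separated groups 0.05 apart in the mean, while *Kcnh1* and the kept cluster of *Kcnh8* were at 0.02 and 0.20.

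The *Kcna* genes, mammalian counterparts of the Shaker channel that shape action potentials in axons, had a median of 0.13, and of 8 members 1 was below 0 (*Kcna4*, -0.13). In *Kcna1*, *Kcna3* and *Kcna7* (37.5% of the 8) all knockdown values were above all control values. The share was 12.8% over all named genes and 9.24% over those at or below the control median. The gap between the groups was 0.13 in *Kcna1*, but 0.017 in *Kcna7* and 0.0037 in *Kcna3*. Leaving out 1 array moved the median of the *Kcna* genes between 0.07, without control replicate 2 (and likewise without knockdown replicate 2), and 0.20, without control replicate 1. None passed the test, and the member farthest from 0, *Kcna5*, was at 0.27 with overlapping groups (adjusted p = 0.195 by limma). All 8 had control signals below the array median, *Kcna3* by 0.01.

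The remaining voltage-gated pores varied within small ranges. Of the *Kcnc* genes, whose channels serve fast-firing neurons, *Kcnc4* had log2 values of 7.16, 6.85 and 7.01 in control and 7.31, 7.40 and 7.20 in knockdown. The groups did not overlap, but the log2 fold change of 0.30 missed the threshold (SE 0.13, adjusted p = 0.153 by limma). *Kcnc1* and *Kcnc2* were at -0.11 and -0.02. The *Kcnd* genes, which form the transient A-type current, ranged from -0.12 for *Kcnd1* to 0.14 for *Kcnd2*, and none of the 3 entered the test. The same held for the *Kcnq* genes, among them pores of the M-current that muscarinic receptors close, which ranged from 0.00 for *Kcnq5* to 0.07 for *Kcnq3*, and for *Kcnb2*, the only delayed rectifier of its subfamily measured under the rule, at 0.01.

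The electrically silent subunits (10 genes, 3 tested) make no working channel alone and modify the *Kcnb* channels when built into them. Their median log2 fold change was 0.11 and 2 of the 10 were below 0. All 4 *Kcng* genes were above 0, with a median of 0.18. In 3 of them, *Kcng1*, *Kcng3* and *Kcng4*, the knockdown values lay wholly above the controls (75%, against 12.8% of all named genes). The groups were 0.095 apart in *Kcng3* but only 0.0026 apart in *Kcng1*. *Kcng4* had log2 values of 6.58, 6.49 and 6.71 in control and 6.95, 6.86 and 6.81 in knockdown. The gap between the groups was 0.10, and the log2 fold change of 0.28 missed the threshold (SE 0.12, adjusted p = 0.153 by limma). *Kcng2*, with more signal, was at 0.15 with overlapping groups. The others were *Kcns1* at 0.20, *Kcnv1* at 0.12, and *Kcns2*, *Kcns3*, *Kcnf1* and *Kcnv2* between -0.05 and 0.05.

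None of the inward rectifiers (15 genes, 8 tested) had a control signal above the array median, and none was called. Their median log2 fold change was 0.06, and 5 were below 0. *Kcnj14* and *Kcnj4*, which encode classical inward rectifiers of neurons and muscle, had knockdown values wholly above the control values. That is 13.3% of the 15, against 12.8% of all named genes and 9.24% of those at or below the control median. *Kcnj14* had 6.59, 6.33 and 6.66 in control and 7.07, 6.71 and 6.72 in knockdown, a log2 fold change of 0.31, and did not enter the test. *Kcnj4* had 6.53, 6.49 and 6.55 against 6.92, 6.93 and 6.61. Its knockdown array 3 lay close to the controls, and the log2 fold change of 0.30 missed the threshold (SE 0.12, adjusted p = 0.153 by limma). The G protein-gated subunits *Kcnj3*, *Kcnj5*, *Kcnj6* and *Kcnj9* lay between -0.10 and 0.10. *Kcnj11*, the pore of the ATP-sensitive channel that couples metabolism to insulin release, was at 0.08.

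The tandem-pore channels (14 genes, 8 tested) had a median log2 fold change of 0.12, 4 of the 14 were below 0, and none was called. *Kcnk5*, an acid-sensitive background channel, had log2 values of 7.10, 7.74 and 7.65 in control and 7.98, 8.10 and 7.90 in knockdown. The groups did not overlap, but control array 1 lay 0.55 below the other controls. The log2 fold change of 0.49 (1.41-fold higher, SE 0.16) was the largest rise among the 92 genes and missed the threshold (adjusted p = 0.0671 by limma). It passed with a filter by sample variance (adjusted p = 0.0179), with a trended and robust prior (0.042), with array weights (0.00302), with the replicate number as a block (0.0488) and without control replicate 2 (0.0277), all by limma. In the other 12 of 17 alternatives it did not pass or, with the filter on signal, did not enter the test: without control replicate 1, the low array, the log2 fold change dropped to 0.30 (adjusted p = 0.127 by limma), and the adjusted p rose to 0.244 without knockdown replicate 2. *Kcnk1*, a weakly conducting background channel, moved the other way, with 8.17, 7.99 and 8.05 in control and 7.78, 7.89 and 7.74 in knockdown. These groups separated by 0.10, and the log2 fold change of -0.27 missed the threshold (SE 0.12, adjusted p = 0.164 by limma). *Kcnk3*, an acid-sensitive channel that sets the resting potential of many neurons, was at -0.11 and *Kcnk15* at 0.15, both with overlapping groups.

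Among the auxiliary subunits (16 genes, 9 tested) the group median was 0.01, 7 were below 0 and none was called. In *Kcnip3*, *Kcnab1* and *Kcnmb4* the knockdown values lay wholly below the controls (18.8% of the 16, against 10.8% of all named genes). The groups were 0.12 apart in *Kcnmb4* but only 0.0055 apart in *Kcnab1*. *Kcnip3* encodes a calcium-binding protein that serves both as a partner of A-type channels and as a transcriptional repressor. It had log2 values of 10.22, 10.08 and 10.55 in control and 9.75, 9.88 and 10.03 in knockdown. The lowest control and the highest knockdown array were 0.05 apart, and the log2 fold change of -0.40 (SE 0.14) missed the threshold (adjusted p = 0.0953 by limma). The other *Kcnip* genes lay between 0.01 and 0.04. All 3 *Kcnab* genes, cytoplasmic beta subunits of the *Kcna* channels, had control signals above the median and log2 fold changes below 0: -0.17 for *Kcnab1*, -0.08 for *Kcnab2* and -0.25 for *Kcnab3*, the last with overlapping groups and an adjusted p of 0.359 by limma. Of the beta subunits of the large-conductance channel, *Kcnmb4*, the form of neurons, was at -0.15 and *Kcnmb2* at -0.09, and *Kcnmb1* and *Kcnmb3* were at 0.17 and 0.15. The *Kcne* genes, small membrane subunits that join *Kcnq* and *Kcnh* pores, lay between 0.00 and 0.15.

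Of the 4 genes that encode no channel subunit, *Kcnd3os* had log2 values of 8.36, 8.15 and 8.15 in control and 8.44, 8.49 and 8.49 in knockdown. The groups separated by 0.08, and the log2 fold change of 0.25 missed the threshold (adjusted p = 0.191 by limma), while *Kcnd3* itself was at 0.09. *Kcnrg* was at 0.08 and the *Kcnmb4os* transcripts at 0.00 and 0.03.

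**Figure D3:**
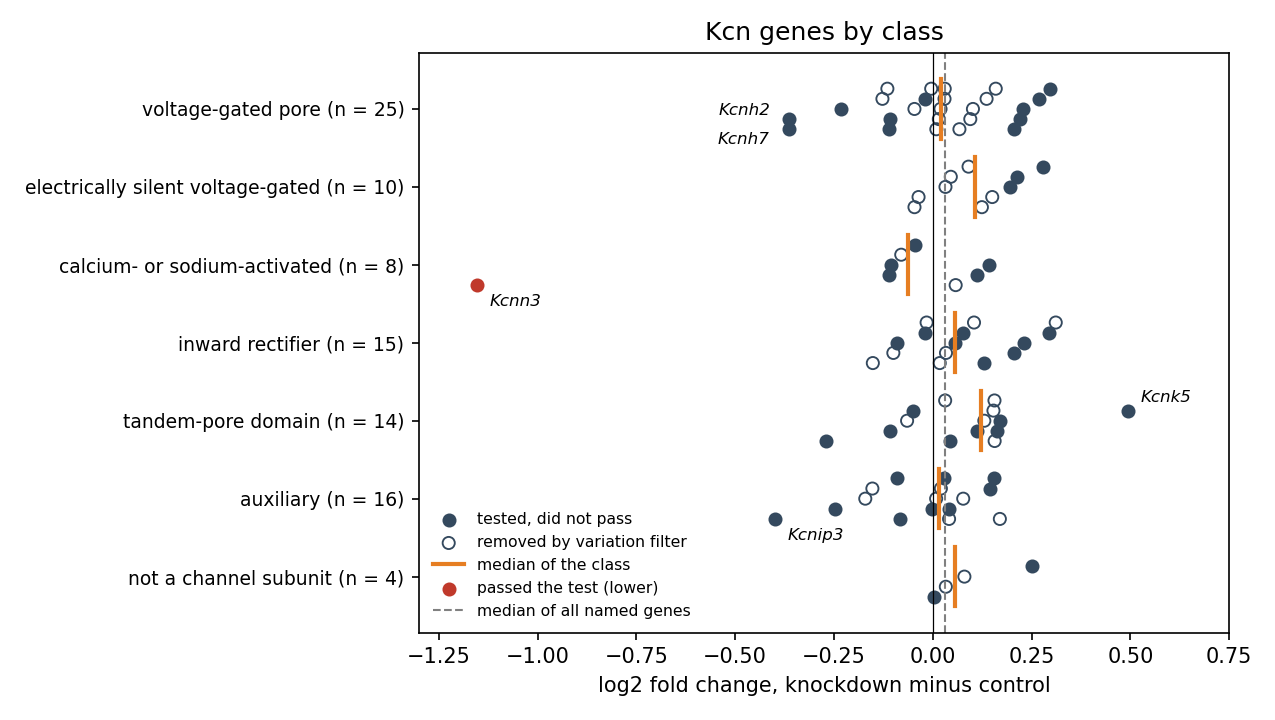
Log2 fold change (knockdown minus control, horizontal axis) of each of the 92 *Kcn* genes, one row for each class, with filled points for genes that entered the test, open points for those that did not, a red point for the called gene, an orange bar at each class median and a dashed line at the median of all named genes. The class medians lie between -0.06 and 0.12, and *Kcnn3* stands apart from the other 91 genes, which by their kept clusters lie between -0.40 and 0.49.

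Most of the genes that were not called left little room for a large change. For each of the 91 uncalled genes a 95% interval was taken from the limma fit to all named genes and set against a 1.5-fold change (0.58 on the log2 scale). The interval lay inside these limits for 85 genes, with the lower end for *Kcnh2*, -0.57, close to the limit. The standard errors given above for tested genes came from the fit after the filter. No intervals were taken from that fit, so the count holds for the fit to all named genes only. It reached a 1.5-fold fall for *Kcnab3*, *Kcnh7* and *Kcnip3*, and a 1.5-fold rise for *Kcnj14*, *Kcnj16* and *Kcnk5*. For *Kcnma1* this holds for the kept cluster only. RMA values compress differences near background, which bears on the 74 genes at or below the array median.

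The fall of *Kcnn3* was called whichever array was left out, with adjusted p between 0.000902 and 0.0432 by limma and log2 fold changes between -1.37 and -1.01. It missed the threshold in 1 of 17 alternatives, where clusters without a single symbol were kept in the filter and the fit (adjusted p = 0.117 by limma). There 17778 clusters were tested and 0 named genes were called. Calls among the clusters without a single symbol were not counted. The other *Kcnma1* cluster, in fits where it replaced the kept one, was likewise called whichever array was left out. Its adjusted p lay between 0.00553 and 0.0459 by limma, with log2 fold changes between -0.77 and -0.61.

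**Figure D4:**
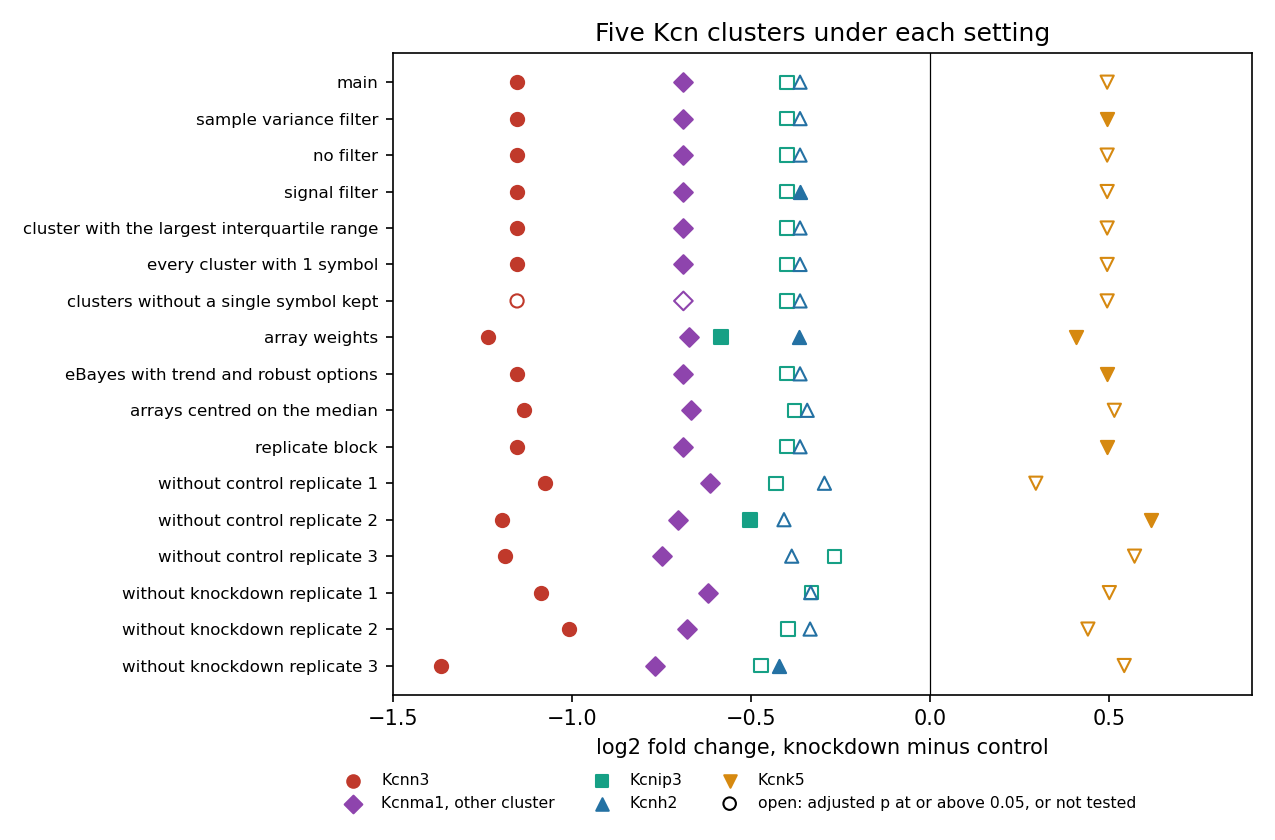
Log2 fold change (knockdown minus control, horizontal axis) of *Kcnn3*, the other cluster of *Kcnma1*, *Kcnip3*, *Kcnh2* and *Kcnk5* under each setting of the filter, the clusters, the fit and the arrays (rows), filled where the adjusted p by limma is under 0.05. The *Kcnma1* cluster replaced the kept one in the fit of every row, except where every cluster or unnamed clusters were kept. All 5 keep their direction in every row, *Kcnn3* and the other *Kcnma1* cluster are filled in all rows but the one with unnamed clusters, and the remaining 3 are mostly open.

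Proteins that bind potassium channels or control their genes were looked at as a list of 28 measured genes, 17 of them tested. Here 6 of the 17 fell and 1 rose, against 5.16% and 2.39% of all genes tested, and the list median was -0.06. Leaving out an array ended some of these calls, as given after the values. The list was chosen with earlier results of these data known, so its counts are descriptions only. Of the 28 genes, 16 had control signals above the median, where 479 of 5450 tested named genes fell and 227 rose. *Lgi1*, a secreted protein associated with *Kcna* channels and mutated in an inherited epilepsy, had log2 values of 11.59, 11.18 and 11.29 in control and 10.46, 10.40 and 10.88 in knockdown. It was 1.71-fold lower with no overlap (adjusted p = 0.0104 by limma), and its membrane receptor gene *Adam23* was 1.36-fold lower (adjusted p = 0.0439). *Ank3*, the ankyrin that anchors *Kcnq* and sodium channels at the start of the axon, was 1.64-fold lower (adjusted p = 0.00784), and *Cntnap1*, an adhesion protein beside the node of Ranvier, 1.55-fold lower (adjusted p = 0.0131).

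*Dlg2*, a scaffold that clusters *Kcna* channels, was 1.44-fold lower (adjusted p = 0.0323 by limma). *Lrrc55*, an auxiliary gamma subunit of the *Kcnma1* channel, had log2 values of 8.22, 8.52 and 8.42 in control and 7.87, 7.76 and 7.74 in knockdown. All knockdown values were lower, by 1.51-fold in the mean (adjusted p = 0.0124 by limma). *Rest*, which encodes a repressor of neuronal genes, moved the other way, with 8.29, 8.48 and 8.49 in control and 8.96, 8.81 and 8.83 in knockdown. It was 1.36-fold higher with no overlap (adjusted p = 0.0382 by limma).

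None of these 7 calls held whichever of the 6 arrays was left out. The call of *Ank3* was lost without knockdown replicate 2 only (adjusted p = 0.0524 by limma), and that of *Lrrc55* without control replicate 3 or knockdown replicate 2 (up to 0.0774). *Lgi1* and *Cntnap1* lost theirs when control array 1, control array 3 or knockdown array 2 was dropped (up to 0.0705 and 0.0842). *Dlg2* lost its call without any of the 3 controls or without knockdown replicate 2 (up to 0.162). *Adam23* and *Rest* lost theirs without control replicate 1 or 3 or knockdown replicate 1 or 2 (up to 0.181 and 0.168), and also with the replicate number as a block (0.0553 and 0.0552). With unnamed clusters kept, where no named gene was called, the adjusted p of the 7 by limma lay between 0.143 and 0.198.

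The hyperpolarisation-activated and cyclic nucleotide-gated channels, relatives of the *Kcnh* genes that pass sodium as well as potassium, had 9 measured genes. Of the 5 tested, 1 fell and 1 rose, against 5.16% and 2.39% of all genes tested. *Hcn2*, a pacemaker channel of neurons and heart, had log2 values of 9.72, 9.70 and 9.81 in control and 10.38, 10.37 and 10.36 in knockdown. The knockdown arrays were within 0.02 of each other and all above the controls, 1.54-fold higher in the mean (adjusted p = 0.00624 by limma). *Cnga3*, the channel of cone photoreceptors, had 8.77, 8.60 and 8.56 against 8.02, 8.06 and 8.15. It was 1.48-fold lower with no overlap (adjusted p = 0.0135 by limma). The call of *Hcn2* held whichever array was left out (adjusted p up to 0.0441 by limma), and that of *Cnga3* was lost when control array 3 or knockdown array 1 or 2 was dropped (up to 0.0723).

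The sodium-potassium and proton-potassium pumps and the chloride cotransporters that carry potassium had 12 measured genes, 7 of them tested, and 0 were called. The median was -0.10, and the member farthest from 0 was *Atp1b2*, a beta subunit of the sodium pump, at -0.45 with overlapping groups (adjusted p = 0.0952 by limma). Of the 2 other families of voltage-gated pores, 4 of 11 measured sodium channel genes fell (*Scn9a*, *Scn2a*, *Scn3b* and *Scn8a*, 8 tested, median -0.24), and 1 of 24 calcium channel genes fell (*Cacna1b*, 12 tested, median 0.00). Among all genes tested 5.16% fell. The call of *Scn9a* held whichever array was left out, while *Scn2a* kept its call in 2 of 6 such fits (without control array 3 or knockdown array 3), *Cacna1b* in 2 (without control array 2 or knockdown array 3), *Scn3b* in 1 (without knockdown array 3) and *Scn8a* in 0. For the *Kcn* genes the count was 1 of 92 with 47 tested. These counts are side by side as descriptions, and a difference between the families was not tested.

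Some markers of the cells themselves moved in the same comparison. The mean log2 value over the 13 measured neuroblastoma markers lay between 10.93 and 10.94 on the control arrays and between 10.66 and 10.77 on the knockdown arrays. Of the 13, 11 were below 0, 9 were tested and 3 fell. Among all genes tested 5.16% fell, and above the control median, where 12 of the 13 lay, 479 of 5450 did. The 3 were *Dbh* and *Th*, enzymes of catecholamine synthesis, and *Chgb*, a granule protein, lower by 2.13-, 1.60- and 1.36-fold (adjusted p = 0.000687, 0.0105 and 0.0351 by limma). The other 6 tested were not called, among them *Gata2*, which was higher with no overlap (0.24, adjusted p = 0.197 by limma). The call of *Dbh* held whichever array was left out, that of *Th* in 3 of 6 such fits (it was lost without control array 1 or 3 or knockdown array 1) and that of *Chgb* in 1 (without knockdown array 3). Of the other markers, 5 of 8 of fibroblasts and muscle and 3 of 6 of blood and endothelium entered the test and 0 were called, and none of the 6 of glia entered it, so that no call was possible there. The part of this shift in the values of *Kcnn3* and the other genes above was not tested.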

How the data were processed

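RNA of 6 samples was measured, 3 control and 3 knockdown, grouped by their labels, with 1 array each. The deposited values are log2 expression values: the authors ran RMA, which includes background correction, quantile normalisation and a summary per transcript cluster, with versions and genome build not given in the sources used here. Quantile normalisation forces a common distribution, so a shift of all transcripts at once would not show. Of 35556 transcript clusters, 21789 had 1 symbol in the platform annotation, 1621 several and 12146 none. Only those with 1 symbol were used. By Entrez identifier 19856 of 19938 genes matched the RefSeq gene table of GRCm38.p6, which changed 0 symbols and gave the chromosomes.

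Each gene was represented by the cluster with its highest mean over the arrays. The methods name limma after removal of genes with little variation. The measure was chosen here as the interquartile range over the 6 arrays, and the lower 50% of genes was removed, which left 9969. Groups were compared in limma 3.58.1 under R 4.3.3 (lmFit, then eBayes) with Benjamini-Hochberg adjustment at 0.05 and no covariate. Of these genes 752 changed. Log2 fold changes and 95% intervals of all *Kcn* genes came from a fit to all 19938 genes, and standard errors and adjusted p of tested genes from the fit after the filter. The steps were tested on simulated data. Genes named in the text are the called *Kcn* genes, the member of each subfamily farthest from 0, the 12 farthest from 0 among those above the control median, members with several clusters, those next to the median, and called members of the related lists (or the one farthest from 0). Other *Kcn* genes are named for completeness. The members, lists and rules were chosen with earlier results of these data known. Alternatives covered the filter, the choice of cluster, array weights, the prior, centring, the replicate block and leaving out each array. Hairpin sequences came from the oligonucleotide list of the study.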

Additional observations from a re-analysis of the deposited data

How the results depend on the processing

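Counts of lower *Kcn* genes, 1 as reported, became 2 with a filter on signal (adding *Kcnh2*), with the cluster of largest interquartile range, with every cluster kept and with the other *Kcnma1* cluster, an alternative chosen after seeing the data (each of these 3 adding *Kcnma1*). The count was 8 with array weights and 0 with unnamed clusters kept. Counts of higher genes, 0 as reported, became 1 with a filter by sample variance, with a trended and robust prior and with the replicate block (each time *Kcnk5*), and 20 with array weights. Over all genes 752 changed, against 5561 with array weights and 0 with unnamed clusters kept. Leaving out 1 array gave 1 to 2 lower *Kcn* genes, 0 to 1 higher, and 112 to 1239 changed genes over all: 242, 786 and 112 when control arrays 1, 2 and 3 were dropped in turn, and 201, 138 and 1239 for knockdown arrays 1, 2 and 3. *Kcnip3* and *Kcnk5* passed without control replicate 2 (adjusted p = 0.0476 and 0.0277 by limma), and *Kcnh2* and *Kcnj4* without knockdown replicate 3 (0.0444 and 0.039). *Kcnh2* also passed with the filter on signal (0.043). The cause of these changes was not tested.

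The median of *Kcnma* (1 gene, -0.08) was -0.69 with the cluster of largest interquartile range or the other cluster, and -0.38 with every cluster or unnamed clusters kept. Leaving out 1 array moved the medians of *Kcna* between 0.0706 and 0.1961, of *Kcnh* between -0.203 and -0.0491, of *Kcnj* between 0.0365 and 0.1166, of *Kcnc* between -0.1615 and 0.0868, of *Kcnd* between -0.0847 and 0.1379, of *Kcnk* between 0.0533 and 0.1628 and of *Kcnmb* between -0.0246 and 0.1447. Among the genes of the naming rule, directions turned for uncalled genes near 0. *Kcnf1* went to 0.0024 with array weights. Leaving out 1 array gave -0.1962 to 0.0666 for *Kcnk4*, -0.0847 to 0.3197 for *Kcnd2*, -0.1396 to 0.1027 for *Kcnf1*, -0.0984 to 0.0751 for *Kcnb2*, -0.0166 to 0.2114 for *Kcna2*, -0.0062 to 0.1138 for *Kcnq3*, -0.0128 to 0.0635 for *Kcnmb4os2* and -0.2051 to 0.0404 for *Kcnmb2*.

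Same-numbered arrays did not deviate together (correlations of their deviations from the group means of -0.29, 0.06 and 0.07 over all named genes), so the replicate numbers were not taken as pairs. Between differently numbered arrays the correlations ranged from -0.32 (control 2 with knockdown 3) to 0.37 (control 2 with knockdown 1). The source of such shared deviations was not tested. With the replicate block in the fit, 680 genes changed, *Kcnn3* kept its call (adjusted p = 0.0008 by limma), *Kcnk5* passed, and *Rest* (0.0552), *Adam23* (0.0553) and *Scn8a* (0.0601) lost their calls. With 3 arrays a group, changes in weakly detected genes are the least certain.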
